A study of Homo sapiens with 15 samples.

Results

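HIPP and P4, a pair of small molecules that inhibit the transcriptional co-regulator CtBP2, were set against each other by their effects on gene expression in MDA-MB-231 cells, a breast cancer line of the triple-negative class with mesenchymal features. The comparison used 10 of the 15 two-colour arrays of the series. On 5 arrays the Cy5 channel held cRNA of cells treated with HIPP for 24 h, on 5 others that of cells treated with P4 for 24 h, and on every array the Cy3 channel held cRNA of untreated MDA-MB-231 cells. Treated and untreated cells were the unmodified line, with no transgene. The 5 arrays of a group are biological replicates per the labels. The other 5 arrays, of MDA-MB-231 cells with stable RNA interference of CtBP2 against control cells, entered only the shared estimate of the spread. For each gene, the mean log2 ratio of treated to control over the P4 arrays was subtracted from the mean over the HIPP arrays. A positive difference therefore means a higher ratio with HIPP, and a dye effect that is constant for a gene drops out of it. Of 30988 genes measured, 27579 passed the filter on low variability and were tested.

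Both compounds were prepared from phenylpyruvate and differ in 1 group. HIPP is the oxime, with a hydroxyimino group in place of the keto group, and P4 is the hydrazone, with a hydrazone group at the same carbon. The concentrations used for the arrays are not given in the sources used here, and for the growth curves HIPP was used at a higher concentration than P4. A difference between the structures and a difference between the doses therefore cannot be told apart, and 1 time in 1 cell line was measured. Whether untreated cells of 1 extract served several arrays is not given in the labels.

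CtBP proteins are corepressors that bind NADH, are recruited by DNA-binding proteins such as ZEB1, and bring histone-modifying enzymes to their targets. Cells meet stress with several separate programmes. Heat shock factor induces cytosolic chaperones when proteins misfold, the unfolded protein response does so in the endoplasmic reticulum, and ATF4 drives amino acid synthesis and transport genes in the integrated stress response. NRF2 induces antioxidant genes such as HMOX1, and the aryl hydrocarbon receptor, which binds many aromatic compounds, induces CYP1A1 and its own repressor AHRR. The gene lists used here follow these programmes.

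The arrays lay on slides that largely follow the inhibitor. P4 replicates 1 to 4 lay on slide 1, which was scanned on a different day, HIPP replicates 1 to 3 shared slide 2 with P4 replicate 5, and HIPP replicates 4 and 5 lay on slide 3. The share of gene spots well above background was 67.6 to 73.8% per array for treated cells and 66.4 to 81.0% for controls. HIPP replicate 4 and P4 replicates 1 and 2 stood apart from their groups. To place an array, the genes called without it were taken, and its ratio was scaled between the mean of the other inhibitor (0) and the mean of its own group (1). HIPP replicate 4 had a median position of 0.54, with 52.5% of such genes nearer to HIPP than to P4, so it lay midway between the inhibitors. The other HIPP arrays had 74.5 to 96.1% of genes nearer to HIPP. P4 replicates 1 and 2 had 62.5 and 70.6% nearer to P4, against 87.6 to 94.0% for P4 replicates 3 to 5. P4 replicate 5, which shared its slide with 3 HIPP arrays and none of the other P4 arrays, had a median position of 1.00. Over all genes, the median correlation of the ratios of P4 replicates 1, 2, 4 and 5 was 0.37 to 0.51 with the P4 arrays and 0.42 to 0.54 with the HIPP arrays. P4 replicate 3 had 0.45 with its own group and 0.30 with HIPP, and every HIPP array correlated more with its own group. All 8 tested markers of a mesenchymal carcinoma line were well above background in the control channel on all 10 arrays. Of 10 tested luminal markers 7 were well above background in the control channel on all 10 arrays, and 2, CDH1 and PGR, on 0. Of 9 tested leukocyte markers 2 were above it on all 10 arrays, and 4, PTPRC, CD3D, LYZ and MS4A1, on 0.

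**Figure D1:**
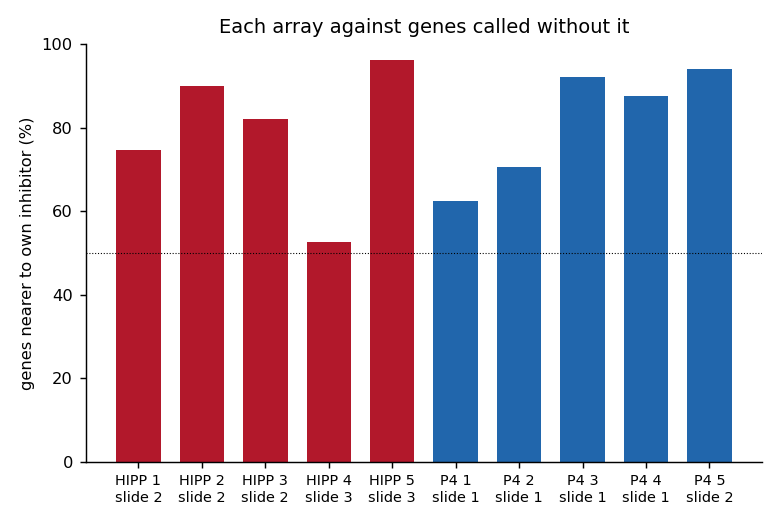
Share of genes, in percent, for which each array's log2 ratio lay nearer to the mean of its own inhibitor than to that of the other, over the genes called with that array left out. Bars are single arrays, with the slide under each, and the dotted line marks 50%. HIPP replicate 4 stands at 52.5%, and P4 replicate 5, on the slide of HIPP replicates 1 to 3, at 94.0%.

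HIPP and P4 differed in 2488 genes, 9.02% of those tested, by limma with a Benjamini-Hochberg adjusted p under 0.05 and a difference of at least 1.5-fold; such genes are named called below. Of these, 1143 (4.14%) were higher and 1345 (4.88%) lower with HIPP than with P4. Without the fold threshold 2925 genes passed, and 6549 had an unadjusted p under 0.05. The called differences ran from -3.35 to 3.62 on the log2 scale with a median size of 0.93, against 0.27 over all genes tested, and 90 called genes were at least 4-fold apart. For 1518 called genes (61.0%) the 5 HIPP and the 5 P4 ratios did not overlap, whereas 8.05% of all genes tested were without overlap. Of the arrays that stood apart, leaving out HIPP replicate 4 gave 2915 called genes, P4 replicate 1 gave 2886 and P4 replicate 2 gave 2433, and over all 10 arrays the count ran from 1703, without HIPP replicate 5, to 2915. The called genes were also sorted by what each inhibitor did against its own control. Among the genes higher with HIPP, 687 (60.1%) were raised by HIPP and not past the adjusted threshold with P4, and 224 were raised by both. A further 136 were lowered by P4 and not past the threshold with HIPP, and 74 were raised by HIPP and lowered by P4. Among the genes lower with HIPP, 652 (48.5%) were lowered by HIPP and not past the threshold with P4, and 525 were lowered by both. Another 90 were raised by P4 and not past the threshold with HIPP, and 52 were lowered by HIPP and raised by P4. The counts sorted in this way rest on each ratio against 0, which can hold a dye effect.

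**Figure D2:**
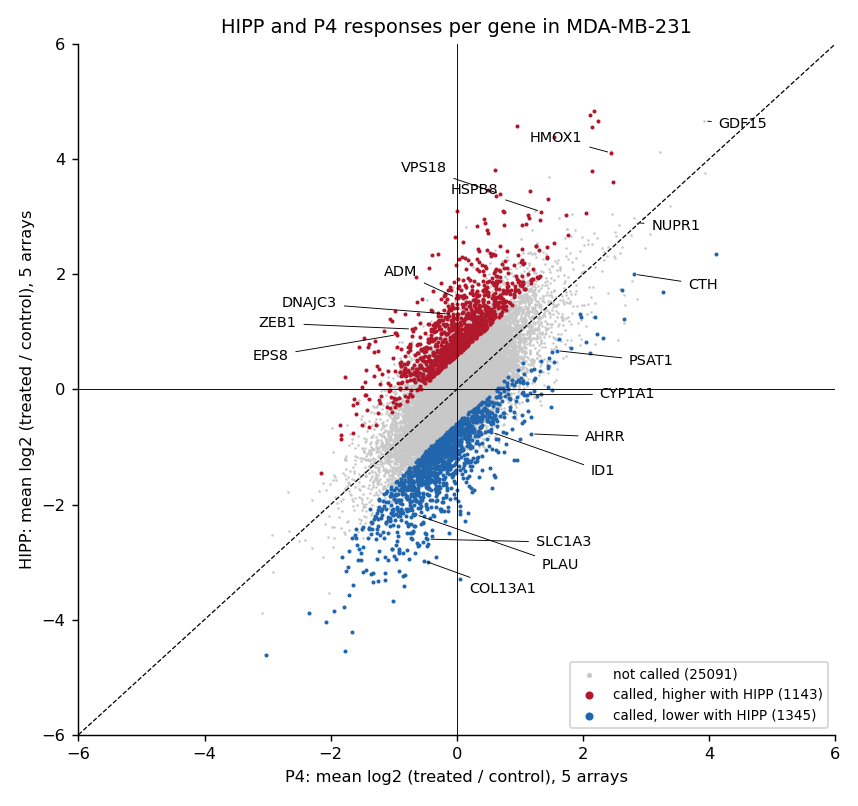
Mean log2 ratio of treated to control over 5 HIPP arrays (vertical) against that over 5 P4 arrays (horizontal), 1 point per gene tested; the dashed line marks equal responses. Red points are the 1143 genes called higher and blue points the 1345 called lower with HIPP; NUPR1, with means of 2.90 and 2.85, lies on the line, and HMOX1, with 4.11 and 2.45, lies above it.

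The split between the directions depended on the scaling. Of the called genes 45.9% were higher with HIPP, against 56.6% of 611 genes called after normexp background correction with loess. It was 58.5% of 796 genes for the treated channel alone after normexp, loess and quantile normalization of the mean intensities, and 30.4% of 2905 for the treated channel of the processed signals, where the median of all genes shifted by -0.09. The median difference of all genes tested was 0.0015 in the main fit.

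Slide and inhibitor could be separated only in part. The control channels, which hold untreated cells on every array, differed between the HIPP and P4 arrays in 1 gene (0.00363%), and 3397 genes had an unadjusted p under 0.05. Without P4 replicate 5, which leaves P4 on slide 1 alone, 936 genes differed between the control channels, 621 higher and 315 lower on the HIPP arrays. Among the genes called for the ratio, the median size of the treated-channel difference was 0.99 and that of the control-channel difference 0.22, against 0.30 and 0.24 over all genes, and the treated channel exceeded the control channel in 2369 of 2488. With slide as a fixed block, where only slide 2 separates the inhibitors, 5 genes were called, 1 higher and 4 lower, and the median of all genes shifted to -0.11. A fit with slide 2 left out, chosen after seeing the data, sets P4 replicates 1 to 4 against HIPP replicates 4 and 5, which are arrays disjoint from those of slide 2. It called 1593 genes, of which 1423 (89.3%) had the same direction on slide 2, where HIPP replicates 1 to 3 meet P4 replicate 5, and 867 were also at least 1.5-fold apart there. Over all genes tested, 52.4% had the same direction in these sets. Of the 1593 genes, 1084 were also called with all arrays.

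**Figure D3:**
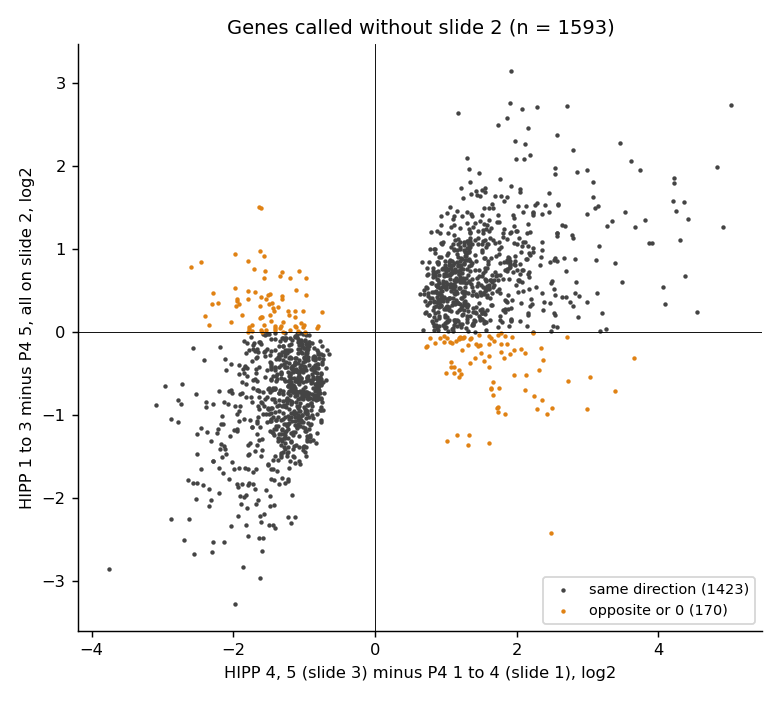
Differences in log2 ratio of the 1593 genes called with slide 2 left out: HIPP replicates 4 and 5 minus P4 replicates 1 to 4 (horizontal) and HIPP replicates 1 to 3 minus P4 replicate 5, all on slide 2 (vertical). Each point is a gene; 1423 dark points have the same direction on both axes and lie in the lower left and upper right.

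Before the genes that separated the compounds, some that were not called set the scale. NUPR1, a stress-induced chromatin protein of the ATF4 programme, had log2 ratios of 2.81, 3.06, 2.98, 2.69 and 2.94 on HIPP replicates 1 to 5, and of 2.83, 2.85, 2.79, 2.83 and 2.96 on P4 replicates 1 to 5. The groups overlapped throughout, with a difference of 0.04 and a 95% interval of -0.27 to 0.36. ATF4 itself had means of 1.60 ± 0.17 with HIPP and 1.51 ± 0.25 with P4 (SD, n = 5 here and below), and the interval of its difference was -0.25 to 0.44. The difference of ASNS, the asparagine synthetase, was -0.17 (-0.47 to 0.13). HSPA5, the main chaperone of the endoplasmic reticulum, had a mean of -0.19 with each inhibitor and an interval of -0.38 to 0.40. Of 23 tested genes of cholesterol synthesis and uptake, 15 were raised by both inhibitors, as were 3013 of all 27579 genes, and 0 were called different. Within that list INSIG1, a sterol-sensing retention factor, had means of 2.77 with HIPP and 1.88 with P4, a difference of 0.90 (0.26 to 1.53) that missed the adjusted threshold at 0.0687.

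Among cytosolic heat shock genes, 5 of the 6 called stood higher with HIPP. Of 19 tested members of the list of heat shock proteins and co-chaperones, 5 were called higher (26.3%, against 4.14% of all genes) and 1 lower (5.26%, against 4.88%). Of the 5, HSPA6 and HSPB8 were called in all 10 fits without 1 array. The median difference of the list was 0.28, against 0.0015 over all genes tested, and the median ratio was 0.12 with HIPP and -0.10 with P4. HSPB8, a small heat shock protein that works with BAG3 in clearing misfolded proteins, HSPA6, a strictly inducible HSP70, and HSPA1A, the major inducible HSP70, led the list. The promoter windows of these genes, and of CHORDC1, the member that went the other way, are shown because many heat shock genes are targets of heat shock factor. They are from RefSeq on GRCh38.p14, from 250 bases before to 50 after the start site, 5′ to 3′ on the gene's strand, at chr12:119178681-119178980 (+) for HSPB8, chr1:161524290-161524589 (+) for HSPA6, chr6:31815293-31815592 (+) for HSPA1A and chr11:90223000-90223299 (-) for CHORDC1. Capitals mark matches to GAANNTTC, the core of a heat shock element, which reads the same on both strands.
HSPB8: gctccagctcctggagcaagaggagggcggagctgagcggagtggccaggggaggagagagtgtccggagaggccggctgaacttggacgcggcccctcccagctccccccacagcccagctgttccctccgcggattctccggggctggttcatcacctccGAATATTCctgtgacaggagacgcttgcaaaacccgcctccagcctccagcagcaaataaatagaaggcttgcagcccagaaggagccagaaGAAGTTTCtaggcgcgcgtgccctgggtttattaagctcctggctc
HSPA6: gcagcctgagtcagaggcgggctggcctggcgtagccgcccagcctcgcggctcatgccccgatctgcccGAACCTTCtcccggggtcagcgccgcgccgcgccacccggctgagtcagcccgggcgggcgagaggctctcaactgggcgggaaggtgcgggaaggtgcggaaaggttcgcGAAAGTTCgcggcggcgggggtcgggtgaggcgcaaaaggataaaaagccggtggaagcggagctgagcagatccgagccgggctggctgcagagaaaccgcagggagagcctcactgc
HSPA1A: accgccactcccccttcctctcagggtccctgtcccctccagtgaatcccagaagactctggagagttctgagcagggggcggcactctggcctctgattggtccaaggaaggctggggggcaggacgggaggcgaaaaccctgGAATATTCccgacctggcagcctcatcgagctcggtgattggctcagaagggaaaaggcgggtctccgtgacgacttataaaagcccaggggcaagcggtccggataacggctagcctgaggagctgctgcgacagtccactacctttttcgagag
CHORDC1: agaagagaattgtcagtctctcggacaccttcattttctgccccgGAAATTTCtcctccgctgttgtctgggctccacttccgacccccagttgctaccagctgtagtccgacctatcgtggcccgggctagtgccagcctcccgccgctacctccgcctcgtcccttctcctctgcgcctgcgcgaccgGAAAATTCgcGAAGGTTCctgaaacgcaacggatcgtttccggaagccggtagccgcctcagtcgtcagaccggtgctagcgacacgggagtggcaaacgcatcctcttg
The windows held 2 matches in HSPB8, 2 in HSPA6, 1 in HSPA1A and 3 in CHORDC1. Of all 35116 promoter windows 6.77% held the motif, as did at least 1 window of 8.21% of 27305 genes, of 10 of 17 tested list members found in the table and 5 of the 6 called members. CHORDC1, with the most matches shown, was the member called lower.

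HSPA6 had log2 ratios of 1.55, 1.65, 1.49, 0.42 and 1.58 on HIPP replicates 1 to 5, and of -0.17, 0.62, -0.41, -0.24 and -0.49 on P4 replicates 1 to 5. HIPP replicate 4 was low and P4 replicate 2 high in their groups, which is the only overlap. The difference was 1.48 (0.87 to 2.09), a 2.79-fold higher ratio with HIPP, with an adjusted p of 0.0044, and it was 0.92 after normexp and loess. On slide 2 it was 2.05, and on the other slides 1.05. HSPB8 had 3.67, 3.57, 3.44, 1.96 and 2.79 with HIPP and 0.76, 1.81, 1.72, 1.56 and 0.84 with P4. The groups did not overlap, although HIPP replicate 4 came close to the highest P4 array. Its difference was 1.75 (0.88 to 2.62), adjusted p = 0.0127, and it was 2.73 on slide 2 and 0.91 on the other slides. HSPA1A, whose near-identical copy HSPA1B may share its probes, had means of 1.45 ± 0.54 and 0.29 ± 0.51, a difference of 1.16 (adjusted p = 0.0285). P4 replicate 2, at 1.19, lay above 1 HIPP array. The HSPA1A difference was 1.82 on slide 2 and 0.58, under 1.5-fold, on the other slides. BAG3, the co-chaperone partner of HSPB8, differed by 0.62 (adjusted p = 0.0304), with 1.055 on slide 2 and 0.38, under 1.5-fold, on the other slides.

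HSP90AA1, the inducible cytosolic HSP90, differed by 0.72 (adjusted p = 0.0259), but of this the treated channel held 0.10 and the control channel -0.63, and its brightest probe alone gave -0.16. CHORDC1, an HSP90 co-chaperone, had -0.94, -0.85, -1.09, -0.32 and -0.75 with HIPP and 0.03, -0.21, 0.20, 0.39 and 0.43 with P4. Every HIPP array lay below every P4 array, and the difference was -0.96 (-1.31 to -0.60), adjusted p = 0.00231. DNAJB1, the J-domain partner of HSP70, had ratios without overlap but a difference of 0.57, under 1.5-fold (adjusted p = 0.009), which reached that fold without HIPP replicate 1 or 3 or P4 replicate 2 or 4 (0.52 to 0.62 over the 10 fits). HSPA8, the constitutive HSP70, gave 0.28 with a wide interval of -0.88 to 1.44, and -0.05 to 0.69 without 1 array. With normexp and loess, HSPB8 (0.69) and HSPA1A (0.80) were no longer called. Leaving out 1 array ended the call of HSPA1A except without HIPP replicates 4 and 5 or P4 replicate 2 (1.00 to 1.39 over the 10 fits), that of BAG3 except without HIPP replicates 3 and 4 or P4 replicates 1 and 2 (0.54 to 0.73 over the 10 fits), and that of HSP90AA1 without HIPP replicate 5 or P4 replicate 2 or 3 (0.58 to 0.80 over the 10 fits).

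**Figure D4:**
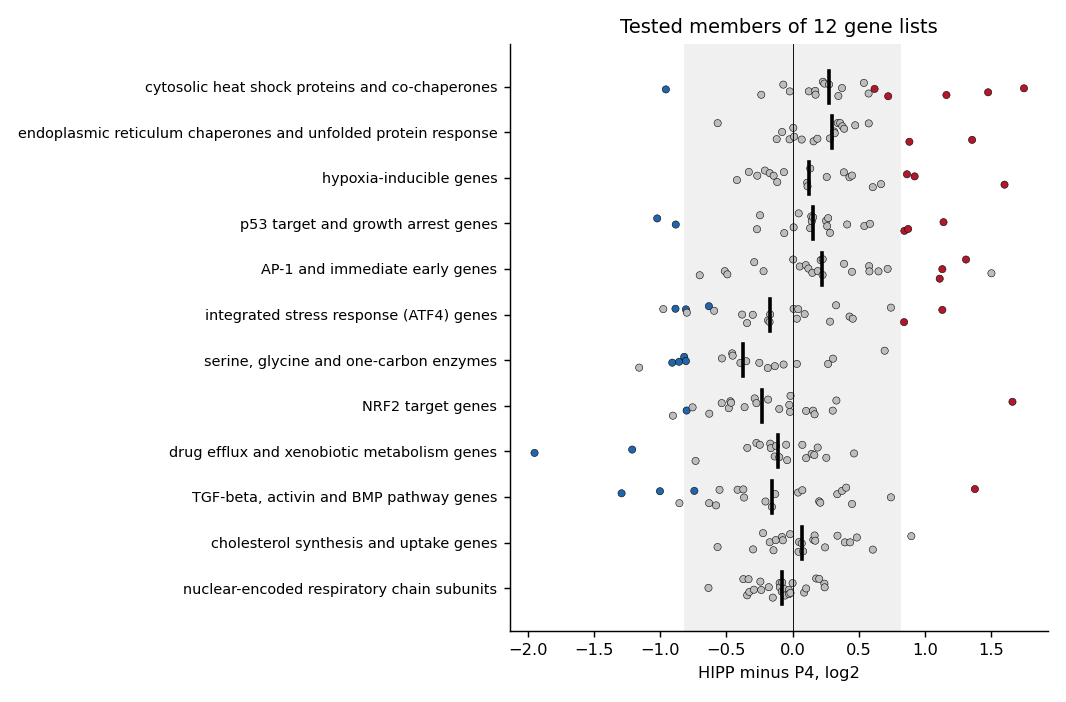
HIPP minus P4 difference in log2 ratio for the tested members of 12 gene lists. Each point is a gene, red where called higher and blue where called lower with HIPP, black bars are list medians, and the grey band spans the 5th to 95th percentile of all genes tested (-0.82 to 0.81). The heat shock list has 5 red points and 1 blue, and the serine list 4 blue points and 0 red.

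In the endoplasmic reticulum, a pair of factors separated the compounds and the main chaperone did not pass the test. DNAJC3, the co-chaperone also known as p58IPK that restrains the kinase PERK, had log2 ratios of 1.30, 1.20, 1.11, 1.35 and 1.55 with HIPP. With P4 they were 0.45, -0.12, -0.43, -0.04 and -0.14. The groups were wide apart, with a difference of 1.36 (1.01 to 1.70) or 2.56-fold, adjusted p = 0.000301, and 1.34 on slide 2 (probe at chr13:95214001-95214144, hg17). CRELD1, a membrane protein of this compartment, differed by 0.88 (adjusted p = 0.00384). These were the 2 called of 20 tested members, both higher with HIPP, against 4.14% of all genes, and the median difference of the list was 0.30. PDIA3, a disulfide isomerase, had means of 0.44 ± 0.11 and -0.14 ± 0.08 without overlap. Its difference of 0.58 (0.34 to 0.81) passed the adjusted threshold at 0.00387 and lay just under 1.5-fold. It reached 1.5-fold without HIPP replicate 1, 2 or 4 or P4 replicate 2 or 4 (0.53 to 0.60 over the 10 fits).

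HMOX1, which encodes heme oxygenase, was raised by both compounds and more by HIPP. Its log2 ratios were 3.86, 4.36, 4.31, 3.58 and 4.43 with HIPP and 1.91, 2.61, 2.43, 2.62 and 2.67 with P4. All HIPP arrays stood above all P4 arrays, at 17.2 times the control with HIPP and 5.45 times with P4. The difference was 1.66 (1.25 to 2.07) or 3.16-fold, adjusted p = 0.000275, and 1.502 on slide 2 (probe at chr22:34114676-34114735, hg17). The rest of the NRF2 list did not follow it. Of 22 tested members 18 were raised by both inhibitors, as were 3013 of all 27579 genes, by ratios against 0 that can hold a dye effect. Only HMOX1 was called higher with HIPP (4.55%, against 4.14% of all genes), and the median difference of the list was -0.23. PIR, an iron-binding nuclear protein, was called lower with means of 0.13 ± 0.44 and 0.93 ± 0.15 (difference -0.80, adjusted p = 0.0301). NQO1, the quinone reductase, differed by -0.76 (-1.28 to -0.23) and missed the adjusted threshold at 0.0664. The call of PIR was lost without HIPP replicate 5, its lowest array (-0.63), or without P4 replicate 3, 4 or 5, and its difference was -0.89 to -0.61 over the 10 fits without 1 array.

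MTF1, the zinc-sensing transcription factor that drives metallothioneins, had 1.81, 2.37, 1.85, 2.08 and 2.26 with HIPP and 1.09, 0.66, 0.08, 0.73 and 0.78 with P4. The groups did not overlap, and the difference was 1.41 (1.03 to 1.78), adjusted p = 0.00036, with 1.24 on slide 2. Its target MT1X differed by 0.10 (-0.19 to 0.39) and MT2A by 0.12 (-0.26 to 0.49). SLC39A10, a zinc importer, had means of -2.21 ± 0.64 with HIPP and -0.89 ± 0.77 with P4 (difference -1.31, adjusted p = 0.0296). ATP7B, a copper pump, differed by -0.62 (adjusted p = 0.0142). These were 1 gene called higher and 2 lower of 19 tested in the list of metallothioneins and zinc or copper handling genes (5.26 and 10.5%, against 4.14 and 4.88% of all genes). SLC39A10 (-0.67) and ATP7B (-0.47) were not called with normexp and loess. The call of SLC39A10 was also lost without HIPP replicate 2, 4 or 5 or any 1 of P4 replicates 2 to 5 (-1.60 to -1.07 over the 10 fits), and that of ATP7B without HIPP replicate 1 or P4 replicate 4 or 5 (-0.70 to -0.55 over the 10 fits).

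Hypoxia-inducible genes had 3 called members of 20 tested, all higher with HIPP, against 4.14% of all genes, with a median difference of 0.12. ADM encodes adrenomedullin, a vasodilator peptide. It had 1.53, 2.05, 1.71, 0.44 and 2.23 with HIPP and 0.36, 0.22, -0.38, -0.23 and -0.02 with P4. HIPP replicate 4 lay just above the P4 arrays and the other 4 far above, with a difference of 1.60 (0.97 to 2.23) or 3.04-fold, adjusted p = 0.00332 (probe at chr11:10285356-10285415, hg17). P4HA2, a collagen prolyl hydroxylase, had means of 1.23 ± 0.29 and 0.31 ± 0.30 without overlap, a difference of 0.92 (adjusted p = 0.00315). LOX, which cross-links collagen, was high with both at 2.29 ± 0.41 and 1.43 ± 0.46, a difference of 0.86 (adjusted p = 0.0316). VEGFA, the vascular growth factor, had means of 2.07 and 1.64 and an adjusted p of 0.0767. LOX was not called with normexp and loess (0.50), nor in 8 of the 10 fits without 1 array, all but those without HIPP replicate 4 or P4 replicate 2 (0.76 to 1.05 over the 10 fits).

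Growth arrest and immediate early genes showed a few large differences. GADD45A, a stress sensor that slows the cell cycle, had 1.98, 1.96, 1.62, 0.27 and 1.96 with HIPP and 0.47, 0.74, 0.29, 0.16 and 0.41 with P4. HIPP replicate 4 fell among the P4 arrays and the other 4 lay above them, for a difference of 1.14 (0.54 to 1.74), adjusted p = 0.017. GADD45B, its relative, had means of 0.65 ± 0.16 and -0.23 ± 0.26 without overlap, a difference of 0.87 (adjusted p = 0.00289). MDM2, the ubiquitin ligase for p53, differed by 0.85 (adjusted p = 0.00327). In the same list CCNG1, a cyclin induced by p53, had means of -1.92 ± 0.35 with HIPP and -0.89 ± 0.24 with P4, a difference of -1.02 (adjusted p = 0.00224). RRM2B, the p53-inducible ribonucleotide reductase subunit, differed by -0.88 (adjusted p = 0.038). Thus 3 of 21 tested p53 and growth arrest genes were called higher and 2 lower (14.3 and 9.52%, against 4.14 and 4.88% of all genes), in a line that carries mutant p53, and CDKN1A, the cell cycle inhibitor p21, differed by 0.27 (-0.15 to 0.69). MDM2 (0.41) and RRM2B (-0.51) were not called with normexp and loess. GADD45A was not called without HIPP replicate 5 (1.04), nor RRM2B without HIPP replicate 2, 4 or 5 or P4 replicate 3, 4 or 5 (-1.09 to -0.72 over the 10 fits).

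JUN, the AP-1 subunit, had 0.70, 1.03, 0.94, 2.01 and 1.61 with HIPP and 0.27, -0.72, -0.33, 0.53 and -0.02 with P4. The ranges did not meet, with HIPP replicates 4 and 5 highest, and the difference was 1.31 (0.73 to 1.90), adjusted p = 0.00668. KLF6, a zinc finger factor of the immediate early response, had 0.75, 0.69, 0.89, 0.38 and 1.09 with HIPP and -0.36, -0.58, -0.40, -0.14 and -0.29 with P4. It stood above the control on every HIPP array and below it on every P4 array, a difference of 1.11 (0.79 to 1.43), adjusted p = 0.000597. ATF3, a stress-induced repressor, had means of 2.20 ± 0.57 and 1.07 ± 0.37, a difference of 1.13 that passed at 0.0458. These were the 3 called of 24 tested AP-1 and immediate early genes, all higher with HIPP (12.5%, against 4.14% of all genes). ATF3 was not called with normexp and loess (0.30), nor in the fits without 1 array other than HIPP replicate 4 or P4 replicate 1 (0.94 to 1.34 over the 10 fits).

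The integrated stress response was high with both compounds. Its 23 tested genes had median log2 ratios of 1.49 with HIPP and 1.5 with P4, against 0.12 and 0.10 over all genes tested. Of the 23, 20 were raised by both, as were 3013 of all 27579 genes, again by ratios that can hold a dye effect. Within it, 2 genes were called higher and 3 lower with HIPP (8.70 and 13.04%, against 4.14 and 4.88% of all genes). PPP1R15A, the phosphatase subunit GADD34 that ends the response, had means of 2.28 ± 0.35 and 1.44 ± 0.21 without overlap, a difference of 0.84 (adjusted p = 0.0067), and ATF3 was the other gene called higher. DDIT4, an inhibitor of mTORC1, had 1.52, 1.83, 1.75, 2.15 and 1.40 with HIPP and 2.36, 3.00, 2.52, 2.73 and 2.46 with P4. All P4 arrays stood above all HIPP arrays, with a difference of -0.88 (-1.30 to -0.47), adjusted p = 0.00887. CTH, the cystathionine lyase that makes cysteine, had 1.98, 2.14, 2.21, 1.78 and 1.89 with HIPP and 2.49, 3.14, 2.79, 2.79 and 2.83 with P4. It too was without overlap, at -0.81 (-1.13 to -0.48), adjusted p = 0.00372. JDP2, a repressor of AP-1 sites, differed by -0.63 (adjusted p = 0.0379). Its call was lost without HIPP replicate 1, 3 or 5 or P4 replicate 1, 4 or 5 (-0.73 to -0.53 over the 10 fits). GDF15, a secreted stress cytokine, had 4.58, 5.22, 5.28, 4.39 and 3.85 with HIPP and 3.47, 4.82, 3.70, 4.01 and 3.61 with P4. The groups overlapped, and the difference of 0.74 (0.08 to 1.41) did not pass at an adjusted p of 0.154, though it did without P4 replicate 2 (0.97). DDIT3, the factor CHOP, gave 0.43 (-0.34 to 1.20) and TRIB3 -0.38 (-0.94 to 0.18).

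The called serine and one-carbon enzymes stood higher with P4. Of 18 tested, 0 were called higher and 4 lower with HIPP (22.2%, against 4.88% of all genes), and the median difference was -0.37. PSAT1, the phosphoserine aminotransferase, had log2 ratios of 0.89, 0.80, 0.68, 0.67 and 0.32 with HIPP and 1.79, 1.48, 1.49, 1.56 and 1.59 with P4. The lowest P4 array was far above the highest HIPP array, and the difference was -0.91 (-1.19 to -0.63) or 1.88-fold, adjusted p = 0.000864, with -0.80 on slide 2 (probe at chr9:78174332-78174391, hg17). MTHFD2, the mitochondrial folate dehydrogenase, had 0.89, 0.96, 0.74, 0.35 and 0.32 with HIPP and 1.60, 1.80, 1.45, 1.23 and 1.47 with P4. There was no overlap, and the difference was -0.86 (-1.20 to -0.51), adjusted p = 0.00372. PHGDH, which opens the serine pathway, had means of 0.21 ± 0.32 and 1.02 ± 0.16, a difference of -0.82 (adjusted p = 0.00377). CTH, described above, is the fourth. SHMT2, the mitochondrial serine hydroxymethyltransferase, had ratios without overlap and a difference of -0.45 (-0.75 to -0.16), past the adjusted threshold at 0.0488 and under 1.5-fold. The 4 called genes stayed called with normexp and loess and in every fit without 1 array. Their direction was the same on slide 2. An amino acid response element, searched as TGATGNAA on both strands, was in 3.62% of all promoter windows and 4.46% of genes, in 0 of 14 tested serine list members found in the table and in 6 of 21 members of the integrated stress response list.

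**Figure D5:**
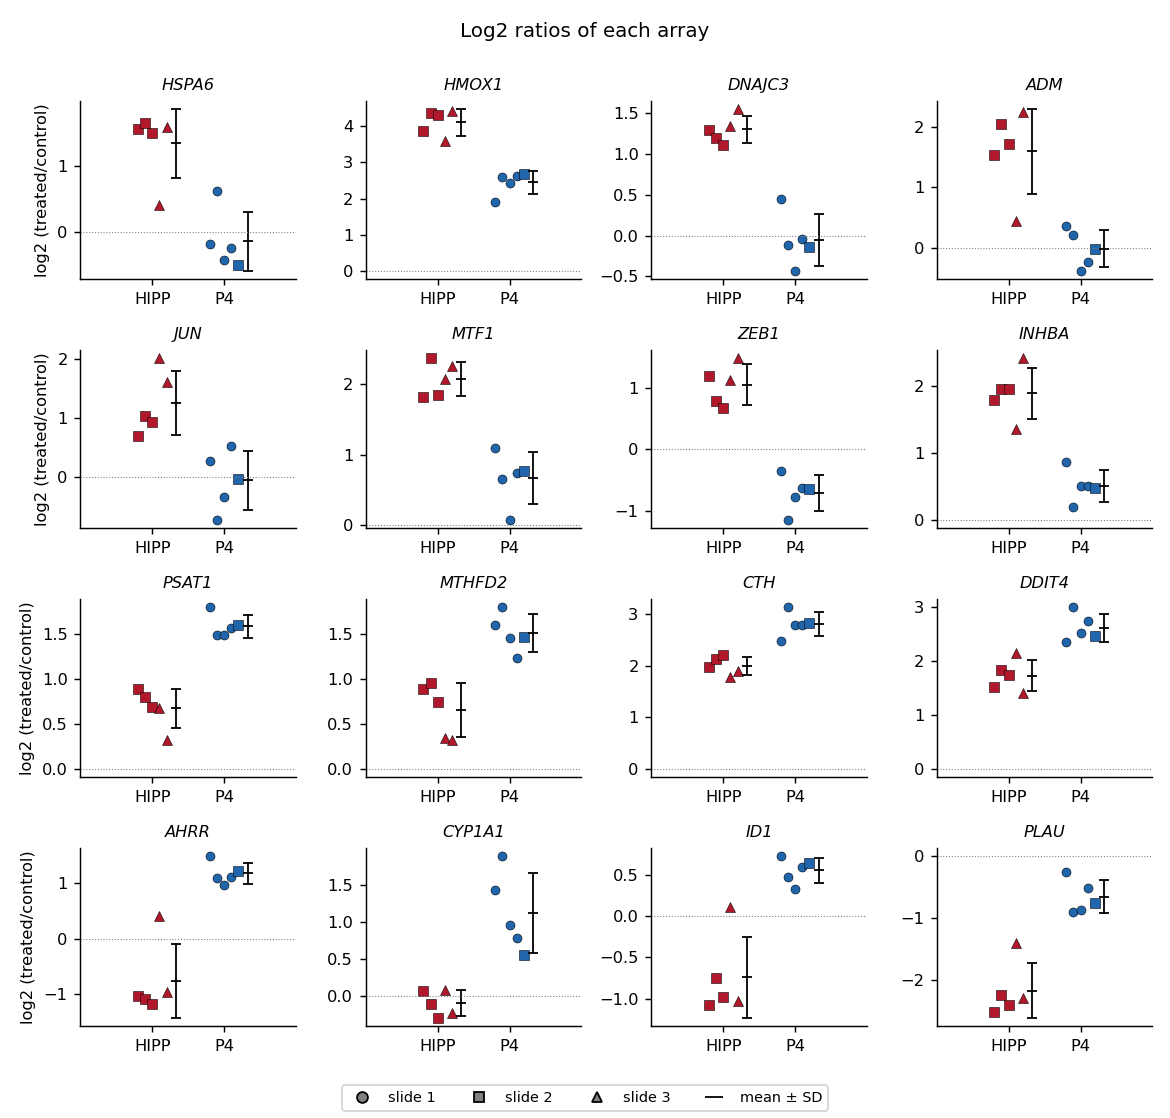
Log2 ratio of treated to control on each of the 5 HIPP (red) and 5 P4 (blue) arrays for 16 genes, with the mean and SD of each group beside the points; circles, squares and triangles mark slides 1, 2 and 3. The square among the P4 points is P4 replicate 5, and HIPP replicate 4, a triangle, lies toward P4 for HSPA6, ADM, AHRR, ID1 and PLAU.

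A pair of genes regulated by the aryl hydrocarbon receptor stood higher with P4. AHRR, the repressor that the receptor itself induces, had -1.03, -1.09, -1.19, 0.41 and -0.97 on HIPP replicates 1 to 5 and 1.49, 1.10, 0.97, 1.11 and 1.22 on P4 replicates 1 to 5. Every P4 array was above the control and 4 of 5 HIPP arrays below it, HIPP replicate 4 being the exception. The difference was -1.95 (-2.50 to -1.40), a 3.87-fold lower ratio with HIPP, adjusted p = 0.000557, with -2.32 on slide 2, -1.45 on the other slides and -1.06 after normexp and loess (probes within chr5:488116-491089, hg17). CYP1A1, the receptor's classic target enzyme, had 0.07, -0.10, -0.29, 0.09 and -0.22 with HIPP and 1.43, 1.88, 0.96, 0.78 and 0.56 with P4. HIPP left it near the control on all arrays, and the groups did not overlap, with a difference of -1.21 (-1.89 to -0.53), adjusted p = 0.0238. CYP1B1, another target, was above the control with both at 1.67 ± 0.77 and 2.40 ± 0.55, a difference of -0.73 (-1.52 to 0.05) that did not pass at 0.251. AHRR and CYP1A1 were the only called members of 20 tested drug efflux and xenobiotic metabolism genes, against 4.88% of all genes called lower. The promoter window of AHRR, from RefSeq on GRCh38.p14 at chr5:321464-321763 (+), is shown with the core of a xenobiotic response element in capitals.
AHRR: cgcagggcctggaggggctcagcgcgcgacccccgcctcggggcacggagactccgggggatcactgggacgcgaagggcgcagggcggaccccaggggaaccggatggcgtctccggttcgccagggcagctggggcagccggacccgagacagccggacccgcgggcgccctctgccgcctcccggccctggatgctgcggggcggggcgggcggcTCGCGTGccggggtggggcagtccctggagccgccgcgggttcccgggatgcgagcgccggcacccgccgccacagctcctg
The motif, searched as TNGCGTG on both strands, was in 5.51% of all windows and 6.69% of genes, and in 2 of 15 tested list members found in the table, of which AHRR was the called one. CYP1A1 was not called without HIPP replicate 3, HIPP replicate 5 or P4 replicate 2 (-1.35 to -1.02 over the 10 fits), and CYP1B1 was called without HIPP replicate 4 (-1.04).

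Genes of the TGF-beta family were called in both directions. INHBA, the activin subunit, had 1.79, 1.94, 1.95, 1.35 and 2.41 with HIPP and 0.87, 0.20, 0.50, 0.51 and 0.47 with P4. It was above the control on all arrays and higher on every HIPP array, a difference of 1.38 (0.94 to 1.82), adjusted p = 0.000982. ID1, an inhibitor of helix-loop-helix factors and a BMP target, had -1.07, -0.75, -0.98, 0.11 and -1.03 with HIPP and 0.72, 0.48, 0.32, 0.59 and 0.64 with P4. HIPP replicate 4 was the only HIPP array above the control, and still lay under the P4 arrays. The difference was -1.29 (-1.71 to -0.87) or 2.45-fold, adjusted p = 0.00106. ID2, its relative, had means of -0.73 ± 0.28 and 0.27 ± 0.16 and was on opposite sides of the control on all 10 arrays, a difference of -1.002 (adjusted p = 0.00421) that was -0.61 after normexp and loess. TGFB3, a ligand, differed by -0.74 (adjusted p = 0.0479). So 1 of 23 tested members was called higher and 3 lower (4.35 and 13.04%, against 4.14 and 4.88% of all genes). TGFB3 gave -0.04 with normexp and loess, and was not called without HIPP replicate 2, 4 or 5 or any 1 of P4 replicates 2 to 5 (-0.86 to -0.61 over the 10 fits).

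Targets of YAP and TEAD went both ways, 3 higher and 3 lower of 19 tested (15.8% each, against 4.14 and 4.88% of all genes). LATS2, the kinase that restrains YAP, had means of 1.14 ± 0.46 and -0.09 ± 0.88 with overlap, a difference of 1.23 (adjusted p = 0.0403). PTPN14, a phosphatase that binds YAP, differed by 0.92 (adjusted p = 0.0267), and GADD45B, given above, was the other. AJUBA, a scaffold that binds LATS kinases, had -0.83, -0.80, -1.17, -0.69 and -1.38 with HIPP and 0.79, 0.15, -0.14, -0.04 and 0.17 with P4. The groups did not overlap, at -1.16 (-1.57 to -0.75), adjusted p = 0.00185. CCN2, the matricellular protein CTGF, was lowered by both, with means of -2.80 ± 0.47 and -1.71 ± 0.50, a difference of -1.09 (adjusted p = 0.0197). FOXF2, a mesenchymal forkhead factor, differed by -1.03 (adjusted p = 0.000751). ANKRD1, a much-used YAP target, had means of -2.11 ± 0.27 and -1.44 ± 0.54 and missed the threshold at 0.107 (difference -0.67). LATS2 and PTPN14 were not called with normexp and loess (1.13 and 0.71). Without 1 array, calls were lost for LATS2 in all fits but those without HIPP replicate 3 or P4 replicate 1 (1.00 to 1.54 over the 10 fits), for PTPN14 without HIPP replicate 4 or 5 or P4 replicate 2 or 3 (0.76 to 1.04 over the 10 fits), and for CCN2 without HIPP replicate 2 or 5 (-1.23 to -0.88 over the 10 fits). ANKRD1 was called without P4 replicate 2 (-0.86).

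ZEB1 and ZEB2, the paired repressors of epithelial genes that recruit CtBP, differed between the compounds in opposite directions. ZEB1 had 1.19, 0.78, 0.67, 1.12 and 1.48 with HIPP and -0.36, -1.14, -0.77, -0.62 and -0.64 with P4. It was above the control on all HIPP arrays and below it on all P4 arrays, a difference of 1.75 (1.35 to 2.16) or 3.38-fold, adjusted p = 0.000229, with 1.52 on slide 2 and 0.92 after normexp and loess (probe at chr10:31852945-31853004, hg17). ZEB2 had -0.28, -0.43, 0.27, -0.35 and -0.40 with HIPP and 0.64, -0.003, 0.75, 0.68 and 0.85 with P4. HIPP replicate 3 and P4 replicate 2 cross between the groups, and the difference was -0.82 (-1.22 to -0.42), adjusted p = 0.0109. Against its own control by limma, ZEB2 did not pass with HIPP (adjusted p = 0.153). CTBP2, the intended target, had means of 0.57 ± 0.36 and 0.17 ± 0.35, a difference of 0.41 (-0.01 to 0.82) that did not pass at 0.22. CTBP1, its paralog, gave -0.08 (-0.53 to 0.37). Of 25 tested CtBP paralogs and corepressor partners, ZEB1 was called higher and ZEB2 and ZNF516 lower, against 4.14 and 4.88% of all genes, and ZNF516 was not called with normexp and loess. The transcript level of a protein inhibited by a small molecule does not check the inhibition.

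Of the 8 tested markers of the mesenchymal line, 1 was called higher and 3 lower (12.5 and 37.5%, against 4.14 and 4.88% of all genes). CD44, the hyaluronan receptor, had means of 1.40 ± 0.28 and 0.45 ± 0.19 without overlap, a difference of 0.94 (adjusted p = 0.00129). PLAU, the urokinase protease, had -2.51, -2.24, -2.41, -1.41 and -2.30 with HIPP and -0.26, -0.90, -0.86, -0.51 and -0.75 with P4. All HIPP arrays lay lower, with a difference of -1.52 (-1.94 to -1.09) or 2.86-fold, adjusted p = 0.000513, and -1.64 on slide 2 (probe at chr10:75347056-75347115, hg17). CAV1, the caveolar coat protein, differed by -0.69 (adjusted p = 0.0105) and CAV2 by -0.88 (adjusted p = 0.0397). The summed treated-channel level of the 8 tested mesenchymal markers was 1711 to 2407 (median 1991) on HIPP arrays and 2470 to 3697 (median 2964) on P4 arrays, in units of each array's median signal, and that of the control channel 3132 to 4293 and 3704 to 5151. CDH11, a mesenchymal cadherin, had means of -2.58 ± 0.36 and -1.59 ± 0.25, a difference of -0.98 (adjusted p = 0.0188). With ZEB1, ZEB2 and CD44 it made 2 called higher and 2 lower of 17 tested transition regulators and cadherins (11.8% each, against 4.14 and 4.88% of all genes).

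COL13A1, a transmembrane collagen, had -3.66, -3.07, -3.40, -1.52 and -3.23 with HIPP and 0.28, -1.09, -0.83, -0.40 and -0.54 with P4. HIPP replicate 4 was the nearest to P4 and still below it, and the difference was -2.46 (-3.19 to -1.73) or 5.50-fold, adjusted p = 0.000705, with -2.28 after normexp and loess (probes within chr10:71388613-71388876, hg17). MMP14, the membrane-bound collagenase, had means of 1.81 ± 0.43 and 0.59 ± 0.45, a difference of 1.23 (adjusted p = 0.00312). TIMP3, its matrix-bound inhibitor, had means of -1.49 ± 0.11 and -0.64 ± 0.29, a difference of -0.85 (adjusted p = 0.00206). These were 1 higher and 2 lower of 26 tested collagens, metalloproteinases and inhibitors (3.85 and 7.69%, against 4.14 and 4.88% of all genes). CDH11 (-0.75), CAV2 (-0.02), MMP14 (0.82) and TIMP3 (-0.16) lost their calls with normexp and loess. CAV2 was called only in the fits without HIPP replicate 1, P4 replicate 4 or P4 replicate 5 among those without 1 array (-1.14 to -0.72 over the 10 fits).

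Genes of amino acid handling outside the serine pathway had single large changes. SLC1A3, a glutamate and aspartate transporter, had -2.82, -2.70, -3.72, -0.95 and -2.82 with HIPP and -0.05, -0.90, -0.44, -0.63 and -0.32 with P4. HIPP replicate 4 came close to the P4 arrays and the others lay far below them, with a difference of -2.13 (-2.96 to -1.31), adjusted p = 0.00298. OAT, the ornithine aminotransferase, had means of -1.61 ± 0.30 and -0.55 ± 0.19 without overlap, a difference of -1.06 (adjusted p = 0.000864). SLC43A2, a transporter of large neutral amino acids including phenylalanine, differed by 0.84 (adjusted p = 0.00429). SLC7A5, the better known carrier of such amino acids, gave -0.21 (-0.53 to 0.12), and SLC1A5, the glutamine transporter, 0.25 (-0.15 to 0.65). SLC16A1, which carries lactate and other monocarboxylates, had means of 0.12 ± 0.17 and 0.80 ± 0.18, a difference of -0.69 (adjusted p = 0.00387). Of 23 amino acid transporters tested, 1 was called higher and 2 lower (4.35 and 8.70%, against 4.14 and 4.88% of all genes). Of 18 tested enzymes of phenylalanine, tyrosine and keto acids, the parent class of both compounds, 0 were called, and the median difference was -0.19. With normexp and loess SLC1A3 (-0.50), SLC43A2 (0.32) and SLC16A1 (-0.55) were not called.

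Among inflammatory genes 2 of 27 tested were called higher and 1 lower (7.41 and 3.70%, against 4.14 and 4.88% of all genes). ICAM1, an adhesion molecule, had means of 1.78 ± 0.24 and 0.80 ± 0.44, a difference of 0.98 (adjusted p = 0.00972), and P4 replicate 2 at 1.58 lay among the HIPP arrays. CXCL2, a neutrophil chemokine, had means of 1.52 ± 0.62 and 0.67 ± 0.09 and differed by 0.85 (adjusted p = 0.0439). CCL2, the monocyte chemokine, had -2.40, -2.06, -1.60, -1.45 and -1.89 with HIPP and 0.02, -1.14, 0.27, -0.15 and 0.17 with P4. The groups did not overlap, P4 replicate 2 being nearest, and the difference was -1.71 (-2.58 to -0.85), adjusted p = 0.0138. IRF7, an interferon regulatory factor, was higher by 1.15 (adjusted p = 0.00192) and DDX60, an RNA helicase of the antiviral response, lower by -1.09 (adjusted p = 0.00879), the 2 called of 26 interferon-stimulated genes (3.85% each, against 4.14 and 4.88% of all genes). The difference of IRF7 was 1.82 on slide 2 and 0.73 on the other slides. With normexp and loess ICAM1 (0.32), CXCL2 (0.46), CCL2 (-0.38) and DDX60 (-0.33) were not called, whereas IRF7 was (0.64). CXCL2 was called without HIPP replicate 4 and in none of the other 9 fits without 1 array (0.71 to 1.11 over the 10 fits).

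The cell cycle lists had medians below the control with both compounds, and their few called genes were lower with HIPP. The G1/S and replication list had median ratios of -0.61 with HIPP and -0.23 with P4, and 2 of 19 tested genes were called lower (10.5%, against 4.88% of all genes). POLA1, the primase-bound DNA polymerase, had means of -1.22 ± 0.55 and 0.17 ± 0.39, a difference of -1.39 (adjusted p = 0.00232). RFC3, a clamp loader subunit, differed by -0.75 (adjusted p = 0.00608). The G2/M list had medians of -0.84 and -0.59, and 2 of 29 were called lower (6.90%). CENPE, the kinetochore motor, differed by -0.63 (adjusted p = 0.00631) and DLGAP5, a spindle protein, by -0.59 (adjusted p = 0.01). With normexp and loess RFC3 (-0.44), CENPE (-0.55) and DLGAP5 (-0.56) were not called. Without 1 array, CENPE was not called without HIPP replicate 3 (-0.56), nor DLGAP5 without HIPP replicate 4 or 5 or P4 replicate 2 or 3 (-0.66 to -0.53 over the 10 fits).

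The 10 largest differences in each direction among bright genes with a current symbol and without overlap include, beside ZEB1, HMOX1, COL13A1, SLC1A3 and AHRR, the following, and 1337 of the 2488 called genes had such a symbol. VPS18, a subunit of the complexes that tether vesicles to lysosomes, had 2.05, 3.60, 1.62, 4.50 and 5.22 with HIPP and 1.00, 0.21, 0.34, 1.03 and 0.84 with P4. The HIPP arrays spread widely, highest on slide 3, and the difference was 2.71 (1.58 to 3.84), adjusted p = 0.00465. It was 1.58 on slide 2 and 4.21 on the other slides. EPS8, a regulator of actin bundling, had 0.71, 0.66, 0.86, 1.10 and 1.42 with HIPP and -0.67, -0.92, -0.90, -0.92 and -1.34 with P4. It lay on opposite sides of the control on all 10 arrays, at 1.90 (1.48 to 2.31) or 3.73-fold, adjusted p = 0.000179, with 2.08 on slide 2 (probe at chr12:15665443-15665502, hg17). RHOBTB1 differed by 1.95, TET2, a methylcytosine dioxygenase, by 1.64, SPATA13, a guanine nucleotide exchange factor, by 1.78, PAQR6, a membrane receptor of steroids, by 1.78 and NOTCH2NLA by 1.83, with adjusted p of 0.000757 to 0.009. NOTCH2NLA has near-identical copies that its probe may not tell apart. WNK4, a kinase of ion transport, differed by 1.63 (adjusted p = 0.00477), with 0.63 in the control channel.

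On the lower side, STON1, an endocytic adaptor, had -2.16, -2.44, -2.40, -2.12 and -3.61 with HIPP and -0.31, -0.46, -0.16, -0.50 and -0.52 with P4. The P4 arrays were tight and the groups far apart, at -2.16 (-2.67 to -1.65), adjusted p = 0.000256. MRTFB, a coactivator of serum response factor, had means of -2.49 ± 0.54 and -0.71 ± 0.21, a difference of -1.78 (adjusted p = 0.00032). FAM81A (-2.25), SLC35F3 (-2.002), RPRD1A, a regulator of RNA polymerase (-1.82), ENOX1, a cell surface oxidase (-1.79), and FAM9B (-1.74) make up the set, with adjusted p of 0.000524 to 0.0032. ENOX1 was measured on 4 of the 5 HIPP arrays. After normexp and loess WNK4 (0.90), STON1 (-0.85), FAM81A (-1.03) and ENOX1 (-0.91) were not called, and RHOBTB1 (0.96), SPATA13 (1.18), TET2 (1.09), MRTFB (-1.04), RPRD1A (-1.11) and FAM9B (-0.99) were called with smaller differences.

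Dimmer genes gave large ratios that shrank with another background correction. SLC51B, a subunit of the basolateral bile acid and steroid exporter, had 2.46, 3.93, 1.87, 5.03 and 5.76 with HIPP and 1.15, -0.83, 0.69, 1.27 and 0.76 with P4. The groups did not overlap, at 3.21 (1.71 to 4.70) or 9.22-fold (adjusted p = 0.00874), yet both channels were well above background on 4 of 10 arrays only. It gave 1.39 with normexp and loess and was not called. LILRB3 (2.36 and 0.52), CGB1 (2.35 and 1.04), FAM167A (-2.27 and -0.55) and RCAN2 (-2.02 and -0.51) likewise lost their calls, the first value being the difference in log2 ratio from the processed signals and the second that after normexp and loess. In treated cells LILRB3 was well above background on 1 of 5 P4 arrays and FAM167A on 2 of 5 HIPP arrays. For a further 4 genes the treated channel was not well above background on any array of 1 inhibitor, so only a bound on its difference can be given, the mean of the brighter group against, per array, the higher of the lowest signal well above background and the dim probe itself. MBTD1, in this state on the P4 arrays, was at least 1.26-fold higher with HIPP (adjusted p of the ratio 0.000628). In this state on the HIPP arrays, TNFSF4 was at least 1.28-fold lower (0.000179), GIMAP2 at least 1.19-fold lower (0.00145) and SH3RF3 at least 1.18-fold lower (0.00154) with HIPP. These 4 were not called after normexp and loess. LILRB3 and CGB1 have close paralogs. Across all called genes, 2018 of 2488 were well above background in both channels on all 10 arrays, and 96 on none.

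Of the other genes fixed by name for this comparison, CABP7, a calcium-binding protein, had 3.54, 5.08, 2.89, 6.16 and 6.53 with HIPP and 2.21, 0.90, 1.59, 3.43 and 2.73 with P4. Both compounds stood above the control on all arrays, with overlap. The difference was 2.67 (1.24 to 4.10), adjusted p = 0.0194, with 1.11 on slide 2 and 4.31 on the other slides. The difference over all arrays was split into 4.16 in the treated and 1.48 in the control channel. TSPAN8, a tetraspanin, was lower by -0.84 (adjusted p = 0.0275). SLC3A1, a cystine transporter subunit, was called lower (adjusted p = 0.0486), with its treated channel well above background on 1 of 5 HIPP and 2 of 5 P4 arrays. LMO3, a LIM-only cofactor, was called lower too (adjusted p = 0.00399), but its treated channel was well above background on 0 of 5 HIPP and 3 of 5 P4 arrays, and no fold is given. FST, the activin antagonist follistatin, gave 0.34 (-0.31 to 0.98), NR3C2, the mineralocorticoid receptor, -0.55 (-1.02 to -0.07) with an adjusted p of 0.144, and LPAR1, a lysophosphatidic acid receptor, -0.70 (-1.47 to 0.06). FBP1, a gluconeogenic phosphatase, was well above background in treated cells on 1 of 5 HIPP and 1 of 5 P4 arrays and was not called. NPC2, a lysosomal sterol carrier, was removed by the variability filter, and without the filter it gave 0.14 (-0.17 to 0.45). CABP7 (2.50), LMO3 (0.20), SLC3A1 (0.05) and TSPAN8 (-0.12) were not called with normexp and loess. LMO3 and SLC3A1 were well above background in both channels on 3 of 10 arrays each. Without 1 array CABP7 was not called without HIPP replicate 5 (2.24), nor TSPAN8 without HIPP replicate 2 or 5 or P4 replicate 3 or 5 (-0.995 to -0.668 over the 10 fits). SLC3A1 was called without HIPP replicate 3 and in none of the other 9 fits, and NR3C2 was called without P4 replicate 1 (-0.70).

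The remaining lists held at most 2 called genes each, where 4.14% of all genes were called higher and 4.88% lower. In 4 lists, cholesterol genes, fatty acid synthesis (19 tested), antioxidant and glutathione enzymes (19) and nuclear-encoded respiratory chain subunits (27), 0 were called, against 9.02% of all genes, with median differences of 0.07, 0.13, -0.01 and -0.08. GABARAPL1, an autophagosome protein, was the only called one of 22 lysosome and autophagy genes, with means of 2.44 ± 0.68 and 1.04 ± 0.51 and a difference of 1.41 (adjusted p = 0.00682). That difference was 2.23 on slide 2 and 0.74 on the other slides. BCL2L11, the death protein BIM, was higher by 0.89 (adjusted p = 0.0182) and BID, another one, lower by -0.61 (adjusted p = 0.0173) of 16 BCL2 family genes. PSMD2 was the called one of 18 proteasome subunits (0.72, adjusted p = 0.00843), RPL15 of 23 ribosomal proteins (-0.72, adjusted p = 0.00265) and IARS1 of 12 aminoacyl-tRNA synthetases (-0.95, adjusted p = 0.0171). The only called member was NBN of 16 homologous recombination genes, OAT of 14 glutamine, asparagine and proline enzymes, SLC16A1 of 17 glycolysis and gluconeogenesis genes and RRM2B of 19 nucleotide synthesis enzymes, each lower with HIPP. Of 23 iron and heme genes HMOX1 was called higher and STEAP3 lower. Of the markers of other cell types, SFN of 9 basal ones was called higher, PECAM1 of 10 fibroblast and endothelial ones lower, and 0 luminal or leukocyte ones were called. GABARAPL1 (0.96), BCL2L11 (0.24), BID (-0.46), NBN (-0.47), STEAP3 (-0.48), SFN (0.56), PECAM1 (-0.17), SLC16A1 (-0.55) and RRM2B (-0.51) were not called with normexp and loess, and BID was not called without HIPP replicate 5 or P4 replicate 3 (-0.69 to -0.55 over the 10 fits).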

How the data were processed

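Gene expression was measured on Agilent 4 × 44K whole human genome arrays with treated cells in Cy5 and untreated cells in Cy3, and the dyes were not swapped. The authors scanned the arrays, used Feature Extraction (version 9.5.3.1) for background subtraction and dye normalization, and deposited per-spot intensities and a table of log10 ratios. Positions are those of the array annotation (hg17). From the corrected intensities log2 of Cy5 over Cy3 was taken, flagged spots and control spots were removed, and spots, then probes, were averaged per gene. Genes with values on fewer than 3 of 5 arrays of an inhibitor were left out, and so were the 11% with the lowest interquartile range over 20 channel signals, as the methods describe for single treatments. HIPP minus P4 was tested with limma (version 3.58.1, R 4.3.3) in a fit of all 15 arrays, two-sided, with Benjamini-Hochberg adjustment; called means an adjusted p under 0.05 and at least 1.5-fold. No replicate or slide term was used, and the number of arrays limits the precision. Scripts were tested on simulated data with 200 of 27579 genes changed. The fit recovered 0% of 1.5-fold, 31% of 2-fold and 77% of 4-fold differences at an adjusted p under 0.05. A gene that was not called is therefore not shown to respond alike to both compounds.

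Symbols were updated through RefSeq accessions, so that 26826 of 41000 probes had a current symbol. Promoters are RefSeq windows of 300 bases on GRCh38.p14. Named genes were drawn only from genes with a current symbol. They are the 10 largest called differences in each direction among bright genes without overlap, the 5 largest among dimmer genes, up to 2 called genes per direction from each of 36 gene lists and 5 marker lists, and a set fixed by name from the study's text and supplement. Genes named beyond this rule, such as the remaining called members of a list and ATF4, ASNS, HSPA5, PDIA3, DNAJB1, SHMT2, CYP1B1, HSPA8, INSIG1, NQO1, MT1X, MT2A, VEGFA, CDKN1A, DDIT3 and TRIB3, were chosen after their values were seen. The comparison, the lists and the rule were chosen with earlier results of these data known. Alternatives were other background corrections and normalizations, the deposited log10 table, the treated channel alone, other filters, slide and replicate terms, the methods' t-test and fits without 1 array.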

Additional observations from a re-analysis of the deposited data

Results flagged for a closer look

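The comparison itself is a difference between responses, and 1143 genes were called higher and 1345 lower with HIPP than with P4. Of the called genes named in the text, 7 lay on opposite sides of the control on every array of the inhibitors. These were LILRB3 (difference 2.36), MBTD1 (2.18), EPS8 (1.90), ZEB1 (1.75) and KLF6 (1.11), above the control with HIPP and below it with P4, and ID2 (-1.002) and FAM167A (-2.27), which lay the other way. LILRB3, MBTD1 and FAM167A were dim, with both channels well above background on 6, 5 and 7 of 10 arrays. In treated cells MBTD1 was well above background on 0 of 5 P4 arrays, LILRB3 on 1 of 5 P4 arrays and FAM167A on 2 of 5 HIPP arrays, so the sizes and the side of the control of these 3 rest on signals near background, and for MBTD1 only a treated-channel bound of at least 1.26-fold holds.

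In 19 of 254 groups of 5 arrays, 1 array stood far from the other 4 by Dixon's test, which chance does in about 1 of 20 groups. HIPP replicate 4 was that array for 8 genes, each time on the side of P4: HSPA6 (0.42), GABARAPL1 (1.26), GADD45A (0.27), LOX (1.57), ID1 (0.11), PLAU (-1.41), AHRR (0.41) and COL13A1 (-1.52). P4 replicate 2 was it for SLC51B (-0.83), HSPA6 (0.62), HSPA1A (1.19), ICAM1 (1.58), ZEB2 (-0.0034) and OAT (-0.88). HIPP replicate 5 stood apart for PDIA3 (0.63), PIR (-0.63) and STON1 (-3.61), HIPP replicate 1 for RFC3 (-0.69) and HIPP replicate 3 for ZEB2 (0.27). The values in brackets are log2 ratios of the array named, and a cause was not tested.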

How the results depend on the processing

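The 2488 called genes and 2925 past the adjusted threshold became 1461 and 1478 in a fit of the 10 arrays alone, 1593 and 1593 with slide 2 left out, 611 and 1400 with normexp and loess, 1286 and 1643 with the methods' t-test, 5 and 5 with slide as a fixed block, and 0 and 0 by limma on slide 2 alone, where 3416 had an unadjusted p under 0.05 (3422 with the fixed block, 6549 with all arrays and no block). On slide 2 the lone P4 array is assumed to vary like the HIPP arrays. The treated channel after normexp, loess and quantile normalization gave 796 called. Of 93 called genes named by the rule, 48 were still called with slide 2 left out, 48 with normexp and loess, 55 in that treated-channel fit, 1 with the fixed block and 0 on slide 2 alone. The gene lists, with 73 called members, had 33 with slide 2 left out, 46 with normexp and loess, 0 with the fixed block and 0 on slide 2 alone. Leaving out 1 array gave 1703 to 2915 called genes, 1886 to 3435 past the adjusted threshold (the lowest of both without HIPP replicate 5), 73 to 89 named genes and 53 to 92 list members. Of 127 genes followed through these fits, 99 were called with all arrays, and 75 of the 99 stayed called in all 10 such fits. NBN, STEAP3, SFN, PECAM1 and ZNF516 were not among the genes followed. The control channels, with 1 gene with all arrays and no block, gave 0 by limma with a random slide block or a replicate block (625 and 4613 at an unadjusted p under 0.05, against 3397) and 0 to 936 without 1 array, the highest without P4 replicate 5. Same-numbered HIPP and P4 arrays had correlations of their deviations of -0.02, 0.24, 0.47, 0.34 and 0.19. P4 replicates 3 and 4 correlated best with the HIPP array of their own number. P4 replicates 1, 2 and 5 correlated best with HIPP replicates 2 (0.27), 1 (0.47) and 4 (0.24). These values were mixed, and the main fit did not pair samples by number. The fit with the replicate number as a block called 2983 genes. Processed ratios centred on the median gave 2313 (36.1% higher with HIPP). The causes were not tested.

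Some differences turned sign. On slide 2 alone and with slide as a fixed block FBP1 gave -0.19, FST -0.17, MT2A -0.43, MT1X -0.075, ATF4 -0.24, NUPR1 -0.013 and TRIB3 0.25. With slide 2 left out DDIT3 gave -0.33, HSPA8 -0.99, SLC1A5 -0.14, NUPR1 -0.013, HSPA5 -0.33 and CTBP1 0.21. Background-subtracted signals gave HSPA8 -0.0037, MT2A -0.19, MT1X -0.21, ATF4 -0.14 and HSPA5 -0.13, and the treated channel alone HSPA8 -0.18, MT1X -0.11, ATF4 -0.066 and HSPA5 -0.30. Centring gave NUPR1 -0.0089 and HSPA5 -0.046. Normexp and loess turned NUPR1 (-0.29), LPAR1 (0.14), SLC3A1 (0.045) and LMO3 (0.20), and the brightest probe HSP90AA1 (-0.16). Without 1 array, HSPA5 ran from -0.062 to 0.10, HSPA8 from -0.049 to 0.69, MT2A from -0.031 to 0.23 and CTBP1 from -0.21 to 0.10. Of these, HSP90AA1 (0.72) was called with all arrays and no block, LPAR1 (-0.70) was not, and SLC3A1 and LMO3, with treated signals near background, were called.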
